A study of Mus musculus with 30 samples.

Results

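The 10 genes described here are Depp1, Ccng2, Sesn1, Sesn3, Pik3ip1, Bcl6, Txnip, Klf9, Trp53inp1 and Cited2, which are known as targets of FoxO transcription factors or as genes of the fasted state. They were chosen by name, with earlier results of the same samples known, as 10 of the 49089 genes in the count files, and their working description called them genes lowered by insulin. The 30 samples were of AML12 cells, a non-tumour hepatocyte line established from the liver of a mouse carrying a human TGF-alpha transgene. All cells were starved of serum overnight, in medium with bovine serum albumin. Control cells received a non-silencing siRNA, and the other cells were depleted by transient siRNA transfection of FoxK1 (FoxK1 KD), of FoxK2 (FoxK2 KD) or of both (DKD), so that the knockdown was partial and not a deletion. Each genotype was analysed without insulin (basal, 0 nM) and after 6 h of insulin stimulation at 100 nM. There were 4 replicates of 6 groups and 3 replicates of the Control and DKD groups given insulin. For basal samples the labels state a treatment time of 0, while the protocol describes a mock treatment. They do not say whether replicates were separate cultures, so p-values measure the spread between these samples only. In bulk RNA of this kind, fewer cells of a type and less RNA per cell cannot be told apart.

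FoxO factors are transcription factors that are active when insulin is low. Insulin, through PI3K and AKT, leads to their phosphorylation and export from the nucleus, and the genes they switch on during fasting then fall. In liver these genes include enzymes of glucose production, feedback components of the insulin pathway, brakes on the cell cycle and on mTOR, and regulators of redox balance and autophagy. FoxK1 and FoxK2 are forkhead factors of another family, and the study asked how their loss alters the insulin response of hepatocytes.

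Levels are given in CPM, the reads of a gene scaled to a common library size with TMM factors for composition, and comparisons as log2 fold changes ± standard error (SE) from edgeR's quasi-likelihood model of all 30 samples. The working description did not hold for every gene. Every insulin-stimulated sample was below every basal sample in all 4 genotypes for 4 genes, Depp1, Pik3ip1, Txnip and Klf9. In Control cells this held for 6 of the 10 genes, which added Ccng2 and Cited2. It held for 9 genes in FoxK1 KD cells, 5 in FoxK2 KD cells and 4 in DKD cells. Among all 11368 genes tested, the share with every insulin-stimulated sample below every basal sample was 12.5% in Control, 15.9% in FoxK1 KD, 14.8% in FoxK2 KD and 14.4% in DKD cells. The choice of the 10 genes rested on this contrast, so these counts are a description and are not evidence for it. Bcl6 was lower without overlap in none of the 4 genotypes, and Sesn1, Sesn3 and Trp53inp1 were so in 1 genotype each, FoxK1 KD. The fitted change of Sesn1 was negative in all 4 genotypes, while that of Sesn3, Bcl6 and Trp53inp1 took both signs. The median log2 fold change of the 10 genes with insulin was -0.44 in Control, -0.48 in FoxK1 KD, -0.36 in FoxK2 KD and -0.18 in DKD cells, while the median of all tested genes lay between -0.01 and 0.01.

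**Figure D1:**
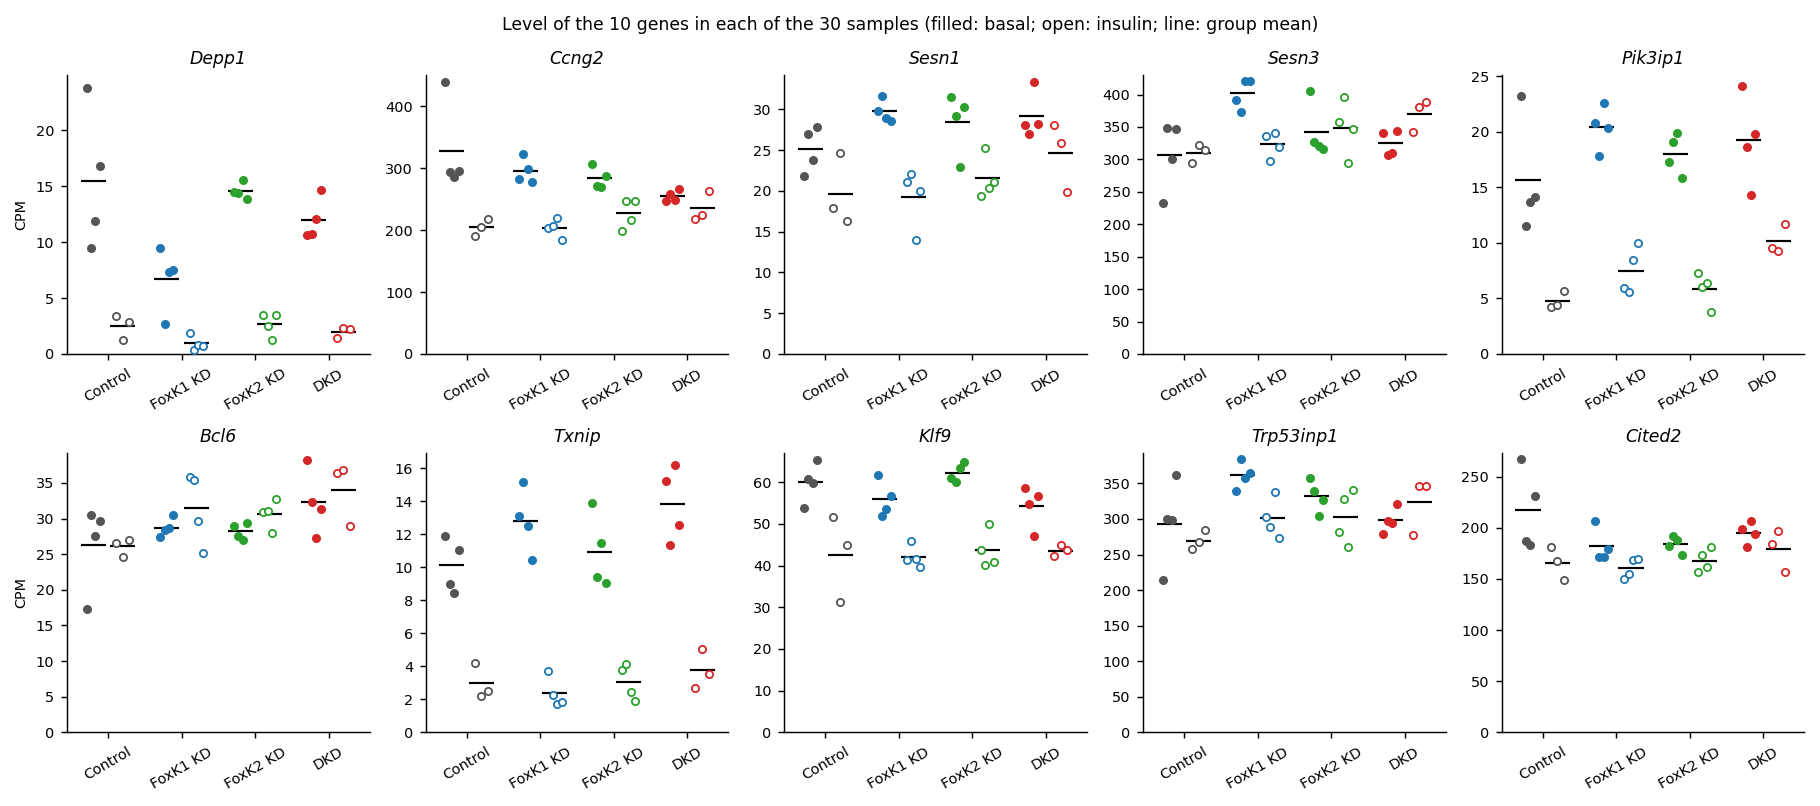
Level in CPM (vertical axes, starting at 0) of each of the 10 genes in each of the 30 samples, by genotype; filled points are basal samples, open points insulin-stimulated samples and lines group means. Depp1, Pik3ip1, Txnip and Klf9 show open points below all filled points of the same genotype, and Bcl6 does not. Control basal replicate 1 lies at an end of the Control basal values in Ccng2, Sesn3, Bcl6 and Trp53inp1.

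Of the 10 genes, 9 had a promoter window in the RefSeq table for GRCm38.p6 (250 bases before to 50 after a transcription start, 11 windows in all), and Trp53inp1 had no entry. The windows were searched on both strands for 4 forkhead-type motifs of 7 letters, namely GTAAACA as the first, GTAAATA as the second, ATAAACA as the third and ATAAATA as the last, of which no match overlapped another. A match was found in 4 of the 11 windows, those of Depp1, Txnip and Klf9 and 1 of the 2 windows of Sesn1, against 15.0% of all 32851 promoter windows. Of all windows, 3.65% held the first motif, 3.04% the second, 4.6% the third and 5.6% the last. The stretches with a match are shown with the motif in capitals, because 3 of them belong to genes that were lower in every insulin-stimulated sample of every genotype. They are the bases before the first annotated base of Depp1 (chr6:116650434-116650608, plus strand), Txnip (chr3:96557707-96557956, plus strand) and Klf9 (chr19:23140976-23141225, plus strand), and 30 bases within Sesn1 (chr10:41810584-41810613, plus strand), where the motif lies on the minus strand and reads TGTTTAC.
Depp1: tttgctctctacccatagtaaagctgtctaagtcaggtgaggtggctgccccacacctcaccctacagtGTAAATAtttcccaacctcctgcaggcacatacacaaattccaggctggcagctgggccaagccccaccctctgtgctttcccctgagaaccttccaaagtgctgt
Txnip: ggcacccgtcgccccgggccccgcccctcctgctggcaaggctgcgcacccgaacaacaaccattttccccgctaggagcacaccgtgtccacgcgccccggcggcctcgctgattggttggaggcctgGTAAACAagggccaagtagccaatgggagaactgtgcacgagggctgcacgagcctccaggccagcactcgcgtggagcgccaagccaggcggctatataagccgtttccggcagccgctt
Klf9: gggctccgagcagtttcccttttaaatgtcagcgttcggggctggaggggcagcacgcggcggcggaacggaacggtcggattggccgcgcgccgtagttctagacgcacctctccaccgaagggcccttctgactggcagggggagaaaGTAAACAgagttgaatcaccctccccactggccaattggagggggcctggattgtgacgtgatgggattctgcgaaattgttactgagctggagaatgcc
Sesn1: agaaccttctacTGTTTACcagccttttgg
The first base of the motif lay at -181 from the RefSeq start in Depp1, at -121 in Txnip, at -100 in Klf9 and at 23 in Sesn1. No such letters were found in the windows of Ccng2, Sesn3, Pik3ip1, Bcl6 and Cited2, which says nothing about sites elsewhere.

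The check of the knockdown fitted the labels. Foxk1 averaged 81.4 CPM in Control basal cells and 36.8 in FoxK1 KD and 46.5 in DKD basal cells, and Foxk2 averaged 140.2 CPM in Control, 47.3 in FoxK2 KD and 50.2 in DKD basal cells. Foxk2 was also lower in every FoxK1 KD basal sample than in every Control sample, by -0.26 ± 0.08 on the log2 scale (edgeR adjusted p = 0.0487). After insulin, Foxk1 and Foxk2 were likewise lower in every sample of the cells depleted of them than in every Control sample. Total counts ranged from 2141460 to 5668270 per sample. Of 11 hepatocyte markers, 9 averaged at least 1 CPM, with Apob at 588.4 CPM and Alb at 10.4 CPM, while Apoa1 and Cyp2e1 were below 1 CPM. Of 5 bile duct or progenitor markers, 4 were expressed, with Spp1 at 1391 CPM and Krt19 at 487.6 CPM, while Epcam was at 0. Summed over its list, the hepatocyte level ranged from 2135 to 2684 CPM in Control, 2344 to 2557 in FoxK1 KD, 2457 to 2650 in FoxK2 KD and 2762 to 2838 in DKD cells at basal, and from 2280 to 2953 CPM in the insulin-stimulated samples. The bile duct level ranged from 1339 to 2228 CPM at basal and from 2055 to 2825 CPM after insulin. The part of these shifts in the results for the 10 genes was not tested. The summed level of 5 fibroblast, 4 endothelial and 4 leukocyte markers reached at most 1.39, 0.55 and 4.43 CPM in any sample. The samples also fell into 2 sets that the labels do not name. Gm42939 was at 0 to 0.284 CPM in the 12 basal samples of Control, FoxK1 KD and FoxK2 KD cells and at 4.43 to 13.5 CPM in the other 18 samples, the basal DKD samples and all insulin-stimulated samples. Gm13668 followed the same division less sharply, at 0 to 0.330 CPM in the former and 0.221 to 5.91 CPM in the latter, ranges that overlapped. For the insulin effects in Control, FoxK1 KD and FoxK2 KD cells and for DKD against Control at basal, that division and the condition cannot be told apart. The insulin effect in DKD cells, all comparisons after insulin stimulation, and FoxK1 KD or FoxK2 KD against Control at basal lie within 1 side of it. Leaving out Control basal replicate 1 moved the fitted values of several of the 10 genes, though a search for outlying samples flagged it in Ccng2 only. The basal values and Control insulin effects that turn on this sample are given with and without it.

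Depp1, also known as a fasting- and progesterone-induced gene whose product has been tied to autophagy and oxidative stress, showed the largest insulin effect of the 10. In Control cells it was at 23.8, 9.50, 11.9 and 16.8 CPM at basal and at 3.43, 1.26 and 2.83 CPM after insulin. In FoxK1 KD cells it was at 9.50, 2.64, 7.29 and 7.49 CPM at basal and at 1.85, 0.373, 0.847 and 0.742 CPM after insulin. Its basal level was thus lowest in FoxK1 KD cells, where the values overlapped those of Control only through 1 FoxK1 KD sample at 9.504 CPM and 1 Control sample at 9.502 CPM. In FoxK2 KD cells the values were 14.5, 14.4, 15.6 and 13.9 CPM at basal and 3.53, 2.48, 1.21 and 3.47 CPM after insulin. DKD cells had 10.6, 10.8, 12.03 and 14.6 CPM at basal and 1.46, 2.32 and 2.21 CPM after insulin. No insulin-stimulated sample reached the lowest basal sample of its own genotype. The log2 fold change with insulin was -2.58 ± 0.34 in Control, -2.82 ± 0.48 in FoxK1 KD, -2.41 ± 0.30 in FoxK2 KD and -2.60 ± 0.38 in DKD cells, which is between 5.30-fold and 7.07-fold lower. Depp1 rests on few reads after insulin, with 10 reads in the 4 FoxK1 KD samples together and fewer than 10 reads in 11 of the 30 samples, and it passed the filter on low counts through its basal level.

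Pik3ip1, which encodes a membrane protein that binds and inhibits the catalytic subunit of PI3K, was the gene of the 10 that was called in DKD cells after insulin. Control cells had 23.3, 11.5, 13.7 and 14.1 CPM at basal and 4.22, 4.43 and 5.66 CPM after insulin. DKD cells had 24.1, 18.6, 14.3 and 19.8 CPM at basal and 9.51, 9.29 and 11.7 CPM after insulin. All 3 insulin-stimulated DKD samples were therefore above all 3 insulin-stimulated Control samples, the lowest of the former at 9.29 and the highest of the latter at 5.66 CPM. FoxK1 KD cells had 20.8, 17.8, 22.6 and 20.3 CPM at basal and 5.91, 5.60, 8.47 and 10.02 CPM after insulin. FoxK2 KD cells had 17.3, 19.1, 19.9 and 15.8 CPM at basal and 7.28, 6.05, 6.37 and 3.78 CPM after insulin. The order of the insulin-stimulated groups was DKD, FoxK1 KD, FoxK2 KD and Control, in which FoxK1 KD overlapped both of its neighbours and FoxK2 KD overlapped Control. The log2 fold change with insulin was -1.69 ± 0.25 in Control, -1.45 ± 0.21 in FoxK1 KD, -1.59 ± 0.21 in FoxK2 KD and -0.92 ± 0.21 in DKD cells.

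Txnip encodes an arrestin-like protein that inhibits thioredoxin and limits glucose uptake. It was at 11.9, 9.002, 8.44 and 11.1 CPM in basal Control cells and at 4.22, 2.21 and 2.52 CPM after insulin. FoxK1 KD cells had 13.1, 15.2, 12.5 and 10.4 CPM at basal and 3.69, 2.24, 1.69 and 1.86 CPM after insulin, the lowest mean of the 8 groups. FoxK2 KD cells ranged from 9.01 to 13.9 CPM at basal and from 1.89 to 4.13 CPM after insulin, and DKD cells from 11.3 to 16.2 CPM and from 2.68 to 5.03 CPM. Basal and insulin-stimulated samples were thus separated in each genotype, and the insulin-stimulated groups overlapped each other. The log2 fold change with insulin was -1.72 ± 0.27 in Control, -2.40 ± 0.27 in FoxK1 KD, -1.78 ± 0.24 in FoxK2 KD and -1.92 ± 0.25 in DKD cells. Txnip shares 606 exonic bases with the antisense gene Gm15441, which had no more than 2 reads in any sample, and Pik3ip1 shares 91 exonic bases with Gm12592, which had between 1 and 12 reads. Bcl6 shares 21 exonic bases with Gm37419, at 0 reads throughout. Whether counting used strand is not given in the sources used here, so reads of these pairs may not be told apart.

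Ccng2, an atypical cyclin that accumulates in arrested cells, was lower after insulin in every sample of Control, FoxK1 KD and FoxK2 KD cells. Control cells had 438.9, 294.1, 286.8 and 295.4 CPM at basal and 191.4, 205.1 and 218.8 CPM after insulin. DKD cells had 247.5, 259.2, 249.4 and 266.3 CPM at basal, all below every Control basal sample, and 218.3, 224.0 and 263.9 CPM after insulin. The basal and insulin-stimulated values overlapped in DKD cells and in no other genotype. FoxK1 KD cells ranged from 277.7 to 323.5 CPM at basal and from 184.1 to 219.7 CPM after insulin, and FoxK2 KD cells from 269.9 to 307.5 CPM and from 198.0 to 247.9 CPM. The log2 fold change was -0.68 ± 0.11 in Control, -0.54 ± 0.10 in FoxK1 KD, -0.32 ± 0.10 in FoxK2 KD and -0.12 ± 0.11 in DKD cells. Without Control basal replicate 1 the value in Control cells was -0.51, next to -0.54 in FoxK1 KD cells.

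Sesn1 and Sesn3 encode sestrins, stress-inducible proteins that restrain mTORC1. Sesn1 lay between 21.8 and 27.9 CPM in Control cells at basal and between 16.4 and 24.7 CPM after insulin, with log2 fold changes from -0.62 ± 0.15 in FoxK1 KD to -0.24 ± 0.15 in DKD cells, and only FoxK1 KD cells showed no overlap. Sesn3 lay between 233.1 and 348.6 CPM in basal Control cells and between 294.5 and 322.4 CPM after insulin, a log2 fold change of 0.01 ± 0.11. The Sesn3 values went in both directions across genotypes, from -0.31 ± 0.10 in FoxK1 KD to 0.18 ± 0.11 in DKD cells. Trp53inp1, a p53-induced gene with a role in autophagy and cell death, had log2 fold changes of -0.13 ± 0.11 in Control, -0.27 ± 0.11 in FoxK1 KD, -0.13 ± 0.10 in FoxK2 KD and 0.11 ± 0.11 in DKD cells. Its Control samples spanned 214.3 to 362.0 CPM at basal, a range that held all 3 insulin-stimulated Control samples at 257.4 to 284.2 CPM.

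Transcriptional regulators complete the set. Klf9, a Krüppel-like factor induced by glucocorticoids, was at 53.9 to 65.4 CPM in Control cells at basal and at 31.3 to 51.7 CPM after insulin. Its log2 fold change was -0.49 ± 0.11 in Control, -0.41 ± 0.11 in FoxK1 KD, -0.51 ± 0.10 in FoxK2 KD and -0.33 ± 0.12 in DKD cells, and no genotype showed overlap. Cited2, a partner of the coactivators CBP and p300, was at 183.1 to 267.4 CPM in basal Control cells and at 148.7 to 181.1 CPM after insulin, a log2 fold change of -0.39 ± 0.10. Without Control basal replicate 1 the change of Cited2 in Control cells was -0.27. In the knockdowns the change of Cited2 was between -0.18 and -0.12. Bcl6, a zinc finger repressor, was at 17.3 to 30.5 CPM in basal Control cells and 24.7 to 27.0 CPM after insulin, and its log2 fold changes lay between -0.02 and 0.14 in the 4 genotypes. Bcl6 thus overlapped between basal and insulin-stimulated samples in every genotype.

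Insulin effects were related to the GC content of genes to different degrees, with Spearman correlations across 11346 genes of 0.07 in Control, 0.34 in FoxK1 KD, 0.25 in FoxK2 KD and -0.22 in DKD cells. In a fit chosen after seeing the data, trends with GC content and length were removed, and several values changed. Trp53inp1 was then between -0.02 and 0.02 in all 4 genotypes, so that its fall in FoxK1 KD cells was no longer seen and its sign turned in FoxK2 KD and DKD cells. Sesn3 was at -0.14 instead of -0.31 in FoxK1 KD and at 0.11 instead of 0.03 in FoxK2 KD cells. Cited2 was at -0.31 instead of -0.18 in FoxK1 KD cells, at -0.19 instead of -0.13 in FoxK2 KD cells and at -0.07 instead of -0.12 in DKD cells. Depp1 was at -3.02 instead of -2.82 and Ccng2 at -0.43 instead of -0.54 in FoxK1 KD cells. Depp1, Pik3ip1, Txnip and Klf9 stayed below 0 in every genotype, with Depp1 between -3.02 and -2.48 and Pik3ip1 between -1.74 and -0.88. Insulin effects in Control cells also changed without Control basal replicate 1. Pik3ip1 was then at -1.46 instead of -1.69 and Depp1 at -2.33 instead of -2.58. Trp53inp1 was at -0.25 instead of -0.13, Bcl6 at -0.16 instead of -0.02 and Sesn3 at -0.10 instead of 0.01. Sesn1, Txnip and Klf9 were at -0.42, -1.64 and -0.53.

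**Figure D2:**
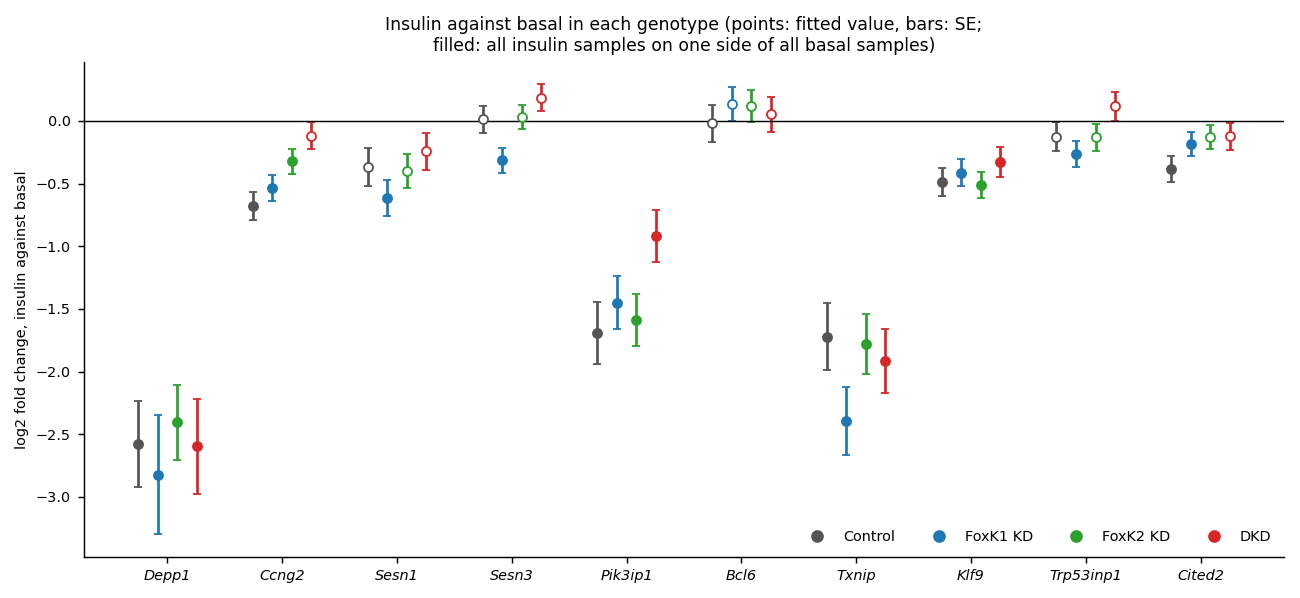
Log2 fold change of insulin-stimulated against basal cells (vertical axis) for each of the 10 genes in each genotype; points are fitted values, bars are SE, and filled points mark genes whose insulin-stimulated samples all lie on 1 side of the basal samples. Depp1, Txnip and Pik3ip1 have the largest changes, from -2.82 to -0.92, while Bcl6 has no filled point.

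Levels of different genes were compared per kilobase of annotated exon, which takes in exons of all isoforms. In basal Control cells the order was Cited2 (88.4 CPM per kb), Ccng2 (60.2), Trp53inp1 (45.3), Sesn3 (20.1), Klf9 (12.5), Depp1 (11.4), Sesn1 (6.31), Bcl6 (3.92), Pik3ip1 (3.66) and Txnip (3.24). The 3 genes with the largest insulin effects, Depp1, Txnip and Pik3ip1, thus lay in the lower part of this order. After insulin the per-kilobase level of Depp1 was 1.85 in Control cells, that of Pik3ip1 1.12 and that of Txnip 0.955, the 3 lowest of the 10. The genes did not all follow a single pattern over the 30 samples. The Pearson correlation of a gene's standardized log2-CPM with the mean of the other 9 was highest for Txnip (r = 0.873), Pik3ip1 (r = 0.786), Sesn1 (r = 0.733), Depp1 (r = 0.726) and Klf9 (r = 0.717), and lowest for Sesn3 (r = 0.263) and Bcl6 (r = -0.067), a description over samples that share libraries and treatment. Outside the 10 genes, those whose log2-CPM followed the mean of the 10 most closely were Klhl24 (r = 0.960), Mme (r = 0.949), Deptor (r = 0.937), Serinc3 (r = 0.937) and Pamr1 (r = 0.935), over the same 30 samples. Klhl24 averaged 155.3 ± 30.2 CPM (SD, n = 4) in Control basal and 68.7 ± 1.60 CPM (SD, n = 3) in Control insulin-stimulated cells. Deptor, which encodes an inhibitor of mTOR, went from 103.1 ± 7.95 CPM (SD, n = 4) to 37.5 ± 4.28 CPM (SD, n = 3), and in DKD cells from 112.9 ± 2.89 CPM (SD, n = 4) to 75.5 ± 4.69 CPM (SD, n = 3).

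The comparisons of the knockdowns with Control were tested with edgeR's quasi-likelihood test, and a gene was called at a Benjamini-Hochberg false discovery rate (FDR) below 0.25 over all 11368 genes. These comparisons share their Control samples with the insulin contrast used to choose the genes, and with each other. Over 9 comparisons, 12 of 90 tests of the 10 genes were called, where 11.3% of all tests in these comparisons were called.

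In FoxK1 KD cells at basal, 5 of the 10 genes were called, 3 higher and 2 lower, where 26.6% of all tested genes were called in either direction. Depp1 fell, by 1.14 ± 0.25 on the log2 scale (edgeR adjusted p = 0.00355), from a mean of 15.5 to 6.73 CPM. Sesn3 rose by 0.38 ± 0.10 (edgeR adjusted p = 0.0132), from 307.4 ± 54.3 CPM to 401.7 ± 23.8 CPM (SD, n = 4 each), and all 4 FoxK1 KD samples were above all 4 Control samples. These calls of Depp1 and Sesn3 were made in every alternative fit at the same FDR. In the fit without Control basal replicate 1 the values were -0.89 (adjusted p = 0.0237) and 0.28 (adjusted p = 0.0664), and with GC content and length trends removed Sesn3 was at 0.23 (adjusted p = 0.0332). Pik3ip1 rose by 0.41 ± 0.17 (adjusted p = 0.132), Trp53inp1 rose by 0.30 ± 0.10 (adjusted p = 0.0712) and Cited2 fell by 0.25 ± 0.09 (adjusted p = 0.0934), and these calls each depended on single samples. Without Control basal replicate 1, Trp53inp1 was at 0.18 (adjusted p = 0.317) and Cited2 at -0.13 (adjusted p = 0.479), no longer called, while Pik3ip1 was at 0.64 (adjusted p = 0.0141). The call of Pik3ip1 was lost without Control basal replicate 2 (0.30, adjusted p = 0.292) and without FoxK1 KD basal replicate 3 (0.36, adjusted p = 0.259). Sesn1 was at 0.23 ± 0.13 (adjusted p = 0.286), with every FoxK1 KD sample, at 28.6 to 31.7 CPM, above every Control sample, at 21.8 to 27.9 CPM, and was not called, and without Control basal replicate 1 it was at 0.18 (adjusted p = 0.542). Calls were also gained with 1 sample left out. Ccng2 was called without Control basal replicate 2 (-0.20, adjusted p = 0.223), 3 (-0.21, adjusted p = 0.212) or 4 (-0.20, adjusted p = 0.224). Sesn1 was called without Control basal replicate 2 (0.265, adjusted p = 0.24) or 4 (0.29, adjusted p = 0.193). Txnip was called without Control basal replicate 4 (0.39, adjusted p = 0.231) or FoxK1 KD basal replicate 4 (0.42, adjusted p = 0.205). Thus 8 of the 10 genes were called without Control basal replicate 4, a fit for which the share of all tested genes is not given here. With GC content and length trends removed, Cited2 was not called (-0.16, adjusted p = 0.255), while Ccng2 (-0.21, adjusted p = 0.187) and Txnip (0.36, adjusted p = 0.227) were. In the fit without Control basal replicate 1, 3 of the 10 genes were called, where 13.6% of all tested genes were. The number called was 2 when only the FoxK1 KD and Control basal samples were fitted.

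In FoxK2 KD cells at basal, none of the 10 genes was called by edgeR, DESeq2 or limma-voom, and 3.59% of all tested genes were. At an unadjusted p below 0.05, 2 of the 10 passed in edgeR's test, Ccng2 at -0.21 ± 0.10 (adjusted p = 0.422) and Cited2 at -0.24 ± 0.09 (adjusted p = 0.302). The values of these 2 genes rested in part on Control basal replicate 1, without which they were -0.04 and -0.12. Without that sample the sign of 2 of the 10 genes, Depp1 and Bcl6, changed, and neither was called. Depp1, at 14.6 ± 0.720 CPM (SD, n = 4) in FoxK2 KD and 15.5 ± 6.32 CPM (SD, n = 4) in Control cells, differed by -0.08 ± 0.22 on the log2 scale. Leaving out Control basal replicate 2, 3 or 4 gave 1 or 2 calls among Ccng2, Cited2 and Trp53inp1. For Cited2 the values were -0.30 (adjusted p = 0.157) without replicate 2 and -0.31 (adjusted p = 0.123) without replicate 3, for Ccng2 -0.27 (adjusted p = 0.238) without replicate 3 and -0.26 (adjusted p = 0.242) without replicate 4, and for Trp53inp1 0.29 (adjusted p = 0.165) without replicate 4.

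In DKD cells at basal, 4 of the 10 genes were called, 3 higher and 1 lower, where 43.6% of all tested genes were called. Ccng2 fell by 0.36 ± 0.10 on the log2 scale (adjusted p = 0.00916), from 328.8 ± 73.5 CPM to 255.6 ± 8.75 CPM (SD, n = 4 each), without overlap of samples. The call of Ccng2 was made in every alternative fit at the same FDR, and without Control basal replicate 1, whose level of 438.9 CPM was far above the other 3 Control samples, the change was -0.20 (adjusted p = 0.0638). Txnip rose by 0.43 ± 0.19 (adjusted p = 0.0996), Bcl6 rose by 0.30 ± 0.13 (adjusted p = 0.105) and Pik3ip1 rose by 0.34 ± 0.18 (adjusted p = 0.174). Each of these 3 calls was lost without DKD basal replicate 1, with Txnip at 0.36 (adjusted p = 0.255), Bcl6 at 0.20 (adjusted p = 0.374) and Pik3ip1 at 0.21 (adjusted p = 0.514). Bcl6 was also not called without Control basal replicate 1 (0.15, adjusted p = 0.347). Pik3ip1 was also not called without Control basal replicate 2 (0.23, adjusted p = 0.419), 3 (0.29, adjusted p = 0.318) or 4 (0.29, adjusted p = 0.318). Without Control basal replicate 1, Pik3ip1 was at 0.57 (adjusted p = 0.00982) and Txnip at 0.50 (adjusted p = 0.0557). Klf9 was called without that sample (-0.19, adjusted p = 0.191), and Sesn1 just inside the threshold without Control basal replicate 4 (0.25, adjusted p = 0.25). Depp1, at -0.35 ± 0.23 (adjusted p = 0.295), was called without Control basal replicate 2 (-0.52, adjusted p = 0.115), Control basal replicate 3 (-0.46, adjusted p = 0.207) or DKD basal replicate 4 (-0.48, adjusted p = 0.204), but was at -0.11 (adjusted p = 0.747) without Control basal replicate 1. Cited2, at -0.16 ± 0.10 (adjusted p = 0.256), was called without Control basal replicate 2 (-0.22, adjusted p = 0.123), Control basal replicate 3 (-0.23, adjusted p = 0.101) or DKD basal replicate 3 (-0.19, adjusted p = 0.225), but was at -0.05 (adjusted p = 0.718) without Control basal replicate 1. Sesn3 (0.08) and Trp53inp1 (0.02), neither of them called, were at -0.03 and -0.11 without that sample. Without it 4 of the 10 genes were called, where 49.3% of all tested genes were.

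Fold changes in this comparison were related to the GC content of genes, with a Spearman correlation of 0.48 across 11346 genes, against -0.23 and -0.12 for FoxK1 KD and FoxK2 KD at basal. With GC content and length trends removed, 7 of the 10 genes were called in DKD cells at basal, where 34.3% of all tested genes were. In that fit Trp53inp1 was at 0.33 (adjusted p = 0.00163) instead of 0.02, Cited2 at -0.26 (adjusted p = 0.0289) instead of -0.16, Sesn3 at 0.19 (adjusted p = 0.0619) instead of 0.08 and Depp1 at -0.53 (adjusted p = 0.0988) instead of -0.35. Pik3ip1 was at 0.22 (adjusted p = 0.396) and no longer called, while Ccng2 (-0.26, adjusted p = 0.0681), Txnip (0.46, adjusted p = 0.0898) and Bcl6 (0.27, adjusted p = 0.159) were. The part of GC content in these differences was not tested.

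**Figure D3:**
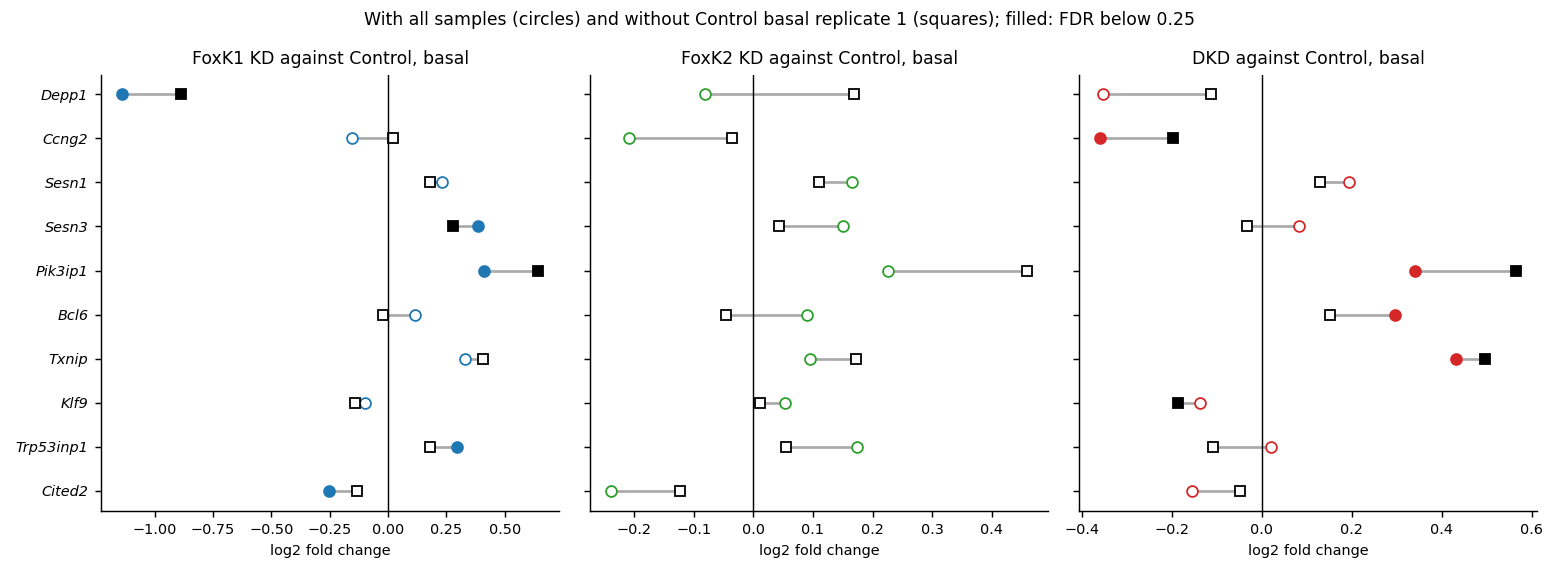
Log2 fold change of each knockdown against Control at basal (horizontal axes) for the 10 genes, fitted with all samples (circles) and without Control basal replicate 1 (squares); filled symbols mark an FDR below 0.25. Depp1, Sesn3 and Pik3ip1 in FoxK1 KD cells and Ccng2, Txnip and Pik3ip1 in DKD cells stay filled, while Ccng2 in FoxK1 KD cells moves from -0.15 to 0.02.

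After insulin stimulation, 1 of the 10 genes was called in DKD cells, Pik3ip1, where 6.66% of all tested genes were called. Pik3ip1 rose by 1.11 ± 0.28 on the log2 scale (edgeR adjusted p = 0.0367), 2.16-fold, from 4.77 ± 0.779 to 10.2 ± 1.34 CPM (SD, n = 3 each), and this call was made in all 13 alternative fits, where the change lay between 0.97 and 1.24 with 1 sample left out. The other 9 genes had differences between -0.37 ± 0.53 for Depp1 and 0.37 ± 0.15 for Bcl6. Bcl6 (adjusted p = 0.275) and Sesn3, at 0.25 ± 0.11 (adjusted p = 0.325), were higher in every DKD sample than in every Control sample but were not called. Among single samples left out, Bcl6 was called without DKD insulin replicate 3 (0.47, adjusted p = 0.224) and Sesn1 without Control insulin replicate 2 (0.49, adjusted p = 0.237). With GC content and length trends removed, Sesn3 (0.33, adjusted p = 0.0302), Trp53inp1 (0.34, adjusted p = 0.0267) and Bcl6 (0.39, adjusted p = 0.209) were called besides Pik3ip1. In that fit 7.74% of all tested genes were called.

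In FoxK1 KD cells after insulin, 2 genes were called, against 15.1% of all tested genes, both just inside the threshold. Depp1 fell by 1.39 ± 0.63 (edgeR adjusted p = 0.237), from 26 reads in the 3 Control samples to 10 reads in the 4 FoxK1 KD samples, and Pik3ip1 rose by 0.65 ± 0.30 (edgeR adjusted p = 0.236). Depp1 was not called without Control insulin replicate 1 (-1.07, adjusted p = 0.539) or 3 (-1.33, adjusted p = 0.356), nor without FoxK1 KD insulin replicate 2 (-1.12, adjusted p = 0.43), 3 (-1.34, adjusted p = 0.33) or 4 (-1.28, adjusted p = 0.388). Pik3ip1 was not called without Control insulin replicate 1 (0.56, adjusted p = 0.459) or 2 (0.59, adjusted p = 0.377), nor without FoxK1 KD insulin replicate 3 (0.60, adjusted p = 0.363) or 4 (0.47, adjusted p = 0.522). Bcl6, at 0.27 ± 0.15 (adjusted p = 0.347), was called without FoxK1 KD insulin replicate 4 (0.37, adjusted p = 0.243). In FoxK2 KD cells after insulin, none of the 10 genes was called by edgeR, DESeq2 or limma-voom, 0 passed at an unadjusted p below 0.05, and 0.238% of all tested genes were called.

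**Figure D4:**
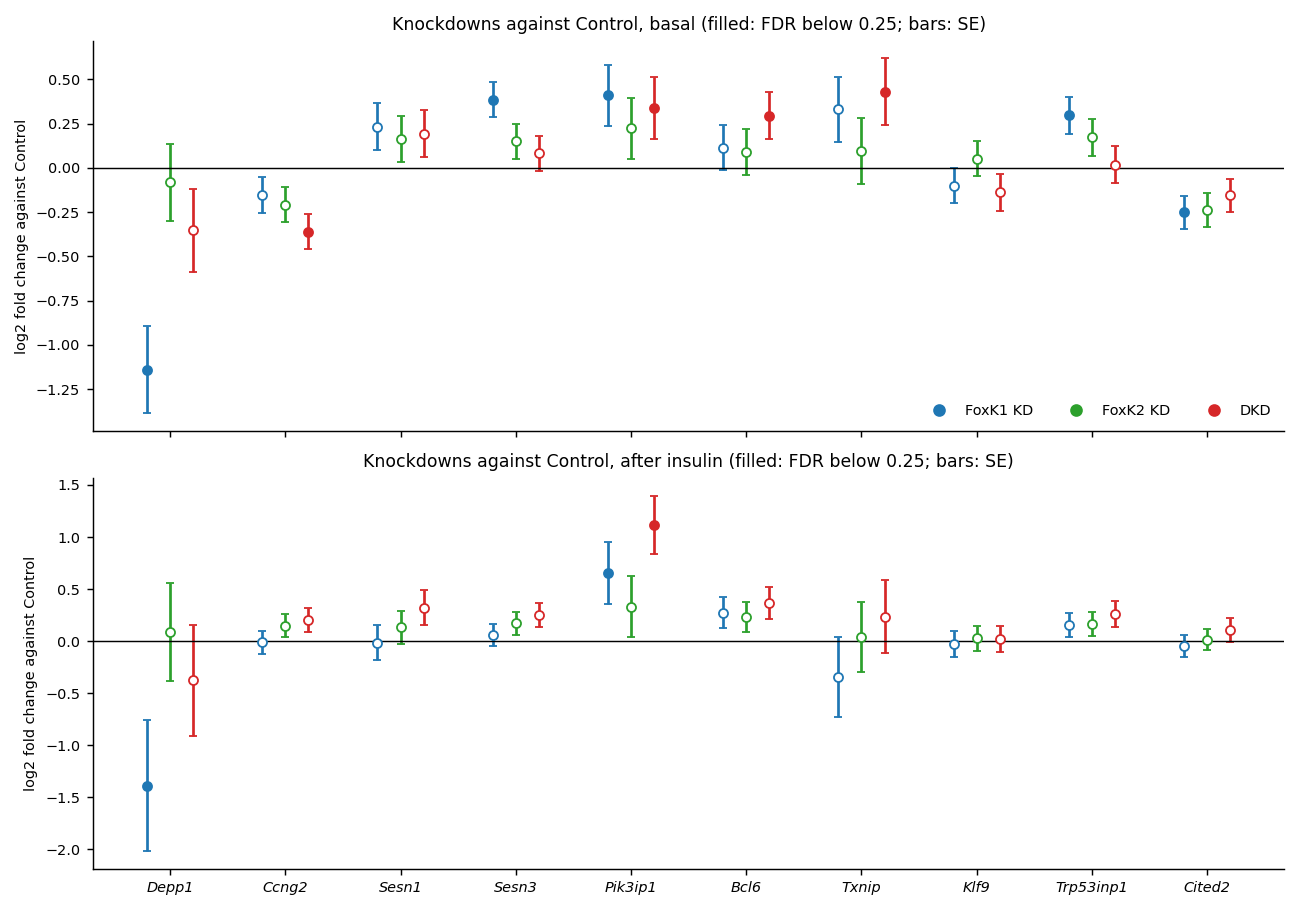
Log2 fold change of each knockdown against Control (vertical axes) for the 10 genes, at basal (upper panel) and after insulin (lower panel); points are fitted values, bars are SE and filled points mark an FDR below 0.25. At basal 5 points are filled for FoxK1 KD and 4 for DKD, after insulin 2 and 1, and none for FoxK2 KD in either state.

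The difference in insulin effect between a knockdown and Control was tested as the interaction of genotype and insulin, with a call at an FDR below 0.25 and a difference above 1.5-fold. None of the 10 genes was called by edgeR, DESeq2 or limma-voom in any of the 3 knockdowns, where 1.55% of all tested genes were called for FoxK1 KD, 0% for FoxK2 KD and 4.04% for DKD. At an unadjusted p below 0.05, 1, 1 and 2 of the 10 genes passed in edgeR's test. In DKD cells these were Ccng2 and Pik3ip1, and both had a weaker insulin effect than in Control cells. Ccng2 differed by 0.56 ± 0.16 on the log2 scale (edgeR adjusted p = 0.0532), which passed the FDR but at 1.48-fold not the minimum of 1.5. It passed both without Control basal replicate 2 (0.61, adjusted p = 0.0346), 3 (0.62, adjusted p = 0.0339) or 4 (0.61, adjusted p = 0.044), without Control insulin replicate 3 (0.60, adjusted p = 0.0679) or without DKD insulin replicate 1 (0.60, adjusted p = 0.06), and was 0.39 (adjusted p = 0.0598) without Control basal replicate 1. Pik3ip1 differed by 0.77 ± 0.33 (edgeR adjusted p = 0.258), and was called without Control basal replicate 2 (0.89, adjusted p = 0.158) or 3 (0.83, adjusted p = 0.238), Control insulin replicate 3 (0.90, adjusted p = 0.239) or DKD basal replicate 1 (0.90, adjusted p = 0.224). Without Control basal replicate 1 it was 0.54 (adjusted p = 0.349). In FoxK1 KD cells the gene was Sesn3, at -0.33 ± 0.15 (edgeR adjusted p = 0.335), and in FoxK2 KD cells Ccng2, at 0.36 ± 0.15 (edgeR adjusted p = 0.883). The difference for DKD spans the division of samples by Gm42939 given above, since basal Control and basal DKD cells lie on different sides of it.

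The FoxO factors themselves were expressed at different levels. Foxo3 was at 285.7 to 324.4 CPM in basal Control cells and at 232.6 to 268.8 CPM after insulin, Foxo1 at 27.3 to 34.9 and 22.1 to 24.5 CPM, Foxo4 at 34.7 to 38.8 and 19.5 to 24.7 CPM, and Foxo6 at 2.23 to 7.09 and 2.90 to 4.43 CPM. Foxo1, Foxo3 and Foxo4 were thus lower in every insulin-stimulated than in every basal Control sample, where 12.5% of all tested genes were. Their log2 fold changes were -0.36 ± 0.14, -0.28 ± 0.07 and -0.72 ± 0.14. Of the 4 genes, 3 were lower without overlap in FoxK1 KD cells, against 15.9% of all tested genes, and 2 in DKD cells, against 14.4%. In FoxK2 KD cells 2 were lower, against 14.8%, and 1 was higher without overlap, against 15.2%. Against Control, 1 of these 4 genes was called in DKD cells at basal, 25% against 43.6% of all tested genes. This was Foxo6, which rose by 0.79 ± 0.29 (edgeR adjusted p = 0.0512) and by 1.12 without Control basal replicate 1 (adjusted p = 0.00468). With GC content and length trends removed Foxo6 rose by 0.65 (edgeR adjusted p = 0.119), and in that fit 1 of the 4 genes was called higher and 1 lower. In the other 8 comparisons 0 were called by edgeR, where 2 passed an unadjusted p below 0.05 in FoxK2 KD cells after insulin and 0 in the rest.

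Of 35 other FoxO targets, 28 passed the filter on low counts. Of these 28, every insulin-stimulated sample was below every basal sample for 11 genes in Control, 13 in FoxK1 KD, 10 in FoxK2 KD and 12 in DKD cells, and above for 4, 3, 4 and 5. Among all tested genes, 12.5% lay above in Control, 16% in FoxK1 KD, 15.2% in FoxK2 KD and 14.3% in DKD cells. The median log2 fold change of the 28 genes in Control cells was -0.30, against -0.01 over all genes. This list, too, was drawn up with these results known. The classical hepatic FoxO targets of glucose production and secretion were nearly absent from these cells. G6pc, the last enzyme of glucose production, had 11 reads in the 30 samples together, Pck1, which feeds that pathway, had 22 reads, and Igfbp1, a secreted IGF-binding protein, had 1 read. Irs2, the insulin receptor substrate under FoxO control, was at 170.4 to 213.4 CPM in basal Control cells and at 55.9 to 76.1 CPM after insulin, a log2 fold change of -1.47 ± 0.11. In DKD cells Irs2 was at 145.3 to 192.0 CPM at basal and at 78.5 to 97.9 CPM after insulin, above every Control sample, and rose against Control by 0.42 ± 0.12 (edgeR adjusted p = 0.0899). Its difference in insulin effect in DKD cells was 0.58 ± 0.16 (edgeR adjusted p = 0.0523), 1.49-fold and therefore not called. This difference was called without Control basal replicate 1 (0.61, edgeR adjusted p = 0.0232) and with GC content and length trends removed (0.72, edgeR adjusted p = 0.0196). It was also called by limma-voom (0.59, adjusted p = 0.0533) but not by DESeq2 (0.57, adjusted p = 0.0314). Against Control at basal, Irs2 in DKD cells was at -0.16 (edgeR adjusted p = 0.267), and at -0.33 (edgeR adjusted p = 0.0243) with those trends removed. Pdk4, a kinase that shuts off pyruvate dehydrogenase in fasting, was low, at 1.5 to 3.97 CPM in basal Control cells and 0.948 to 2.64 CPM after insulin. Cdkn1b, the cell cycle inhibitor p27, was at 188.8 to 318.2 CPM in basal Control, 169.4 to 194.1 CPM in basal DKD and 175.6 to 190.8 CPM in insulin-stimulated Control cells, and fell in DKD cells at basal by 0.53 ± 0.10 (edgeR adjusted p = 0.000283) and by 0.67 without Control basal replicate 1 (adjusted p = 1.64e-07). With GC content and length trends removed this change of Cdkn1b was -0.38 (edgeR adjusted p = 0.00258). For the whole list against Control, 6 rose and 4 fell in FoxK1 KD, 1 rose and 1 fell in FoxK2 KD and 8 rose and 5 fell in DKD cells at basal. These are 35.7% of the 28 genes in FoxK1 KD, against 26.6% of all tested genes, 7.14% in FoxK2 KD, against 3.59%, and 46.4% in DKD cells, against 43.6%. Without Control basal replicate 1, 5 rose and 3 fell in FoxK1 KD cells, 28.6% of the list against 13.6% of all tested genes. In FoxK2 KD cells 0 rose and 1 fell, 3.57% against 1.85%. In DKD cells 10 rose and 12 fell, 78.6% of the list against 49.3% of all tested genes. With GC content and length trends removed and all samples fitted, 4 rose and 5 fell in basal DKD cells, 32.1% against 34.3%. After insulin 3 rose and 1 fell in FoxK1 KD, 0 were called in FoxK2 KD, where 6 passed an unadjusted p below 0.05 in edgeR's test, and 5 rose and 0 fell in DKD cells, 17.9% of the list against 6.66% of all tested genes. In FoxK1 KD cells after insulin the share was 14.3%, against 15.1%. In DKD cells the difference in insulin effect was called for 3 genes of the list, 2 higher and 1 lower, 10.7% against 4.04% of all tested genes. Without Control basal replicate 1 it was called for 5, 4 higher and 1 lower, 17.9% against 4.83%. In each single knockdown it was called for 0, against 1.55% for FoxK1 KD and 0% for FoxK2 KD. There 3 genes each passed an unadjusted p below 0.05 in edgeR's test.

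A list of 12 p53 targets was set beside the 10 genes, because Trp53inp1, Sesn1 and Ccng2 also respond to p53 or to stress, and it shares 1 gene, Cdkn1a, with the list of FoxO targets. In Control cells the fitted change with insulin was within 1.5-fold for all 12, with a median log2 fold change of -0.12. Against Control at basal, 8 rose and 1 fell in FoxK1 KD cells, with a median of 0.27, which is 75% of the list against 26.6% of all tested genes, 0 were called in FoxK2 KD cells by edgeR, where 1 passed an unadjusted p below 0.05, and 6 rose and 0 fell in DKD cells, with a median of 0.15, which is 50% of the list against 43.6% of all tested genes. With that Control sample, replicate 1, left out, 6 rose and 0 fell in FoxK1 KD cells, 50% of the list against 13.6% of all tested genes. In that fit 0 were called in FoxK2 KD cells, against 1.85%, and 6 rose and 0 fell in DKD cells, 50% against 49.3%. The share in basal DKD cells varied with the fit. With GC content and length trends removed and all samples fitted, 7 rose and 1 fell, 66.7% against 34.3%. DESeq2 called 4 higher and 0 lower, 33.3% against 40.3%, and limma-voom 7 higher and 0 lower, 58.3% against 42.9%. After insulin, 4 rose in FoxK1 KD cells, 0 were called in FoxK2 KD cells by edgeR, where 2 passed an unadjusted p below 0.05, and 2 rose in DKD cells, which is 33.3% of the list in FoxK1 KD, against 15.1% of all tested genes, and 16.7% in DKD cells, against 6.66%. The difference in insulin effect was called by edgeR for 0 of the 12 in each knockdown, where 3, 0 and 1 passed an unadjusted p below 0.05. For these 12 genes and the 28 FoxO targets, DESeq2 and limma-voom also called 0 wherever edgeR called 0. With GC content and length trends removed, however, 1 p53 target rose in FoxK2 KD cells at basal, 8.33% against 5.88% of all tested genes. In that fit 1 FoxO target rose in FoxK2 KD cells after insulin, 3.57% against 0.387%. Of the 10 genes, Sesn3, Pik3ip1 and Trp53inp1 rose in the same basal FoxK1 KD samples, of which Trp53inp1 was not called without Control basal replicate 1, while Ccng2 was at -0.15 ± 0.10 (edgeR adjusted p = 0.364) and Sesn1 at 0.23 ± 0.13.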

How the data were processed

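The authors deposited a table of raw read counts per Ensembl gene for each sample, without normalization. Their processing notes name CASAVA 1.8, STAR 2.4.2a and featureCounts, with build GRCm38.p4. The annotation release and strand setting are not given in the sources used here. Symbols came from GENCODE M21, which held 48349 of the 49089 identifiers, and promoters from RefSeq. The 10 genes and the lists (35 other FoxO targets, 4 FoxO factors, 12 p53 targets, cell type markers) were chosen with earlier results of these data known. All 10 genes, the 4 FoxO factors, Foxk1, Foxk2, 6 FoxO targets, overlapping genes and the 5 genes most correlated with the 10 were named by rule; the other genes named as markers or as dividing the samples were chosen after their values were seen.

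Genes passing filterByExpr (11368) were normalized by TMM and tested in 1 model of 8 groups (edgeR 4.0.16, R 4.3.3; quasi-likelihood, Benjamini-Hochberg). The SE was derived from the F statistic, as the size of the log2 fold change over the root of F. CPM used TMM library sizes; correlations used log2-CPM with a prior count of 2. The fits were tested on simulated counts. Alternatives were DESeq2 1.42.0, limma-voom 3.58.1, other filters, fitting only the compared groups, a replicate block, samples left out, an FDR below 0.05 and, chosen after seeing the data, removal of GC content and length trends; the lists were refitted without Control basal replicate 1, also chosen after seeing the data. No 2 replicates agreed within sampling noise (42 pairs, chi-square per degree of freedom at least 1.75).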

Additional observations from a re-analysis of the deposited data

Results flagged for a closer look

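Over the 10 genes, 60 sets of 4 replicates were searched for a sample far from the other 3, and chance alone marks about 1 in 20. The search found 2, no more than that rate would give. Ccng2 was at 438.9 CPM in Control basal replicate 1, against 286.8 to 295.4 CPM in the other 3. Sesn3 was at 405.3 CPM in FoxK2 KD basal replicate 1, against 315.4 to 327.1 CPM in the other 3.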

How the results depend on the processing

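The number of the 10 genes called in FoxK1 KD cells at basal (5) was 2 when only the compared groups were fitted and 2 at an FDR below 0.05, and ranged from 3 to 8 with 1 sample left out. For FoxK2 KD at basal (0) it was 1 with GC content and length trends removed, and 0 to 2 with 1 sample left out. For DKD at basal (4) it was 2 with a filter of at least 1 count in any sample, 2 with only the compared groups, 7 with GC content and length trends removed, 1 at an FDR below 0.05, and 1 to 5 with 1 sample left out. For FoxK1 KD after insulin (2) it was 0 with limma-voom, 1 with either other filter, 1 with only the compared groups, 0 at an FDR below 0.05 and 0 to 2 with 1 sample left out. For DKD after insulin (1) it was 4 with those trends removed and 1 to 2 with 1 sample left out. For the DKD difference in insulin effect (0) it was 1 with at least 10 counts in every sample, 1 with those trends removed and 0 to 2 with 1 sample left out. The cause was not tested. The 3 other counts stayed at 0. The median insulin effect of the 10 genes in Control cells ranged from -0.55 to -0.40 with 1 sample left out. Of 1579 single-gene alternatives, 1407 kept direction and call, 40 lost and 47 gained a call, and in 85 an uncalled value changed sign. No called value reversed.

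With a replicate block the counts in the 9 comparisons were 6, 0, 4, 2, 0, 1, 0, 0 and 0. The replicate numbers were not treated as pairing the samples, since same-numbered samples did not deviate together (mean correlation -0.01 over 99 pairs, from -0.21 to 0.20, against 0.00 over 294 other pairs), and 3 of 30 samples correlated best with their own number. Depth limits Depp1 and Txnip most, with fewer than 10 reads in 11 and 7 of the 30 samples.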
